A study of Sus scrofa with 8 samples.

Results

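Ion channel genes were followed in heart muscle of pigs given glial growth factor 2 (GGF2), a form of neuregulin-1 that acts on heart muscle cells through ERBB receptors, after a myocardial infarction. They were all genes whose single symbol in the platform annotation begins with KCN, CACN, CLCN, HCN, RYR, ITPR, TRPC, TRPM, TRPV or ATP1, or with SCN and a digit, each represented by its brightest probe set over the 8 arrays. The rule took 44 of the 6765 genes named on the array, on 74 probe sets. By ion they were 22 potassium channel genes, 10 calcium channel genes, 3 chloride channel genes, 3 ATP1B genes and 2 TRP cation channel genes. ATP1B1 and ATP1B3 code for beta subunits of the sodium-potassium pump, and ATP1B4 for a related protein. The other 4 (ATP10A, ATP13A1, ATP13A2 and TRPC4AP) share only the opening letters of their symbols with this set and code for no ion channel or sodium-potassium pump subunit. The rule took 0 genes with an SCN, HCN or ATP1A symbol, so voltage-gated sodium channels, pacemaker channels and the catalytic subunits of the pump are not analysed here.

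The study compared 3 groups of castrated male Yorkshire swine, younger than a year and with a mean weight of 54.5 kg, all of which had an infarct. Untreated animals numbered 3, animals infused with 0.67 mg/kg GGF2 (low dose) numbered 3 and animals infused with 2.0 mg/kg (high dose) numbered 2, with doses given per infusion over 4 weeks. RNA came from the remote region of the left ventricle, and each animal was measured on 1 Affymetrix porcine array. No group without an infarct was analysed here, so every comparison is between infarcted hearts.

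Ion channels carry the currents that make and end the cardiac action potential. Sodium and calcium currents depolarise the cell, calcium entry through voltage-gated channels opens ryanodine receptors on the sarcoplasmic reticulum, and several potassium currents return the membrane to rest. The sodium-potassium pump rebuilds the gradients that all of these currents use. In hearts with long-standing disease, lower potassium channel expression and a longer action potential are a well-known form of electrical remodelling.

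Signals are log2 values produced by RMA, which sets the arrays on a common distribution, so a shift shared by most genes would not be seen. They rank animals within a probe set, and signals of different genes have no order. The arrays resembled each other, with correlations across probe sets between 0.981 and 0.994. Cardiac muscle markers were close to the top of the scale in every animal, with array means over 9 markers of 14.18 to 14.30 in untreated, 14.24 to 14.27 in low-dose and 14.25 to 14.28 in high-dose animals, and the ventricular light chain gene MYL2 measured 14.6 to 14.8. The gap between 3' and 5' actin control probe sets, which widens as RNA breaks down, was 4.88 to 5.26 in untreated, 5.48 to 6.04 in low-dose and 4.92 to 5.18 in high-dose animals, so low-dose and untreated animals did not overlap. The mean gap over 3 control genes was 2.93 to 3.36 in untreated, 3.28 to 3.78 in low-dose and 3.00 to 3.03 in high-dose animals, and on it they did. Changes are differences of log2 signals with their standard error (SE) from limma, a linear model that pools information on variance over probe sets, whose adjusted p is by the Benjamini-Hochberg method over all 23999 probe sets.

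Of the 44 genes, 31 lay above the lower quartile of every array (3.72 to 3.80), which was taken as the edge of background. Another 7 lay under it on all 8 arrays: CACNB2, CLCN5, KCNE2, KCNF1, KCNIP1, KCNJ1 and KCNN3. The remaining 6, ATP1B4, KCNA2, KCNB2, KCNIP4, KCNJ2 and RYR3, lay above it on some arrays. Across animals the genes were steady, with a median range over the 8 arrays of 0.50 log2 units, a lowest range of 0.22 (KCNF1) and a highest of 1.66 (KCNJ5).

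**Figure D1:**
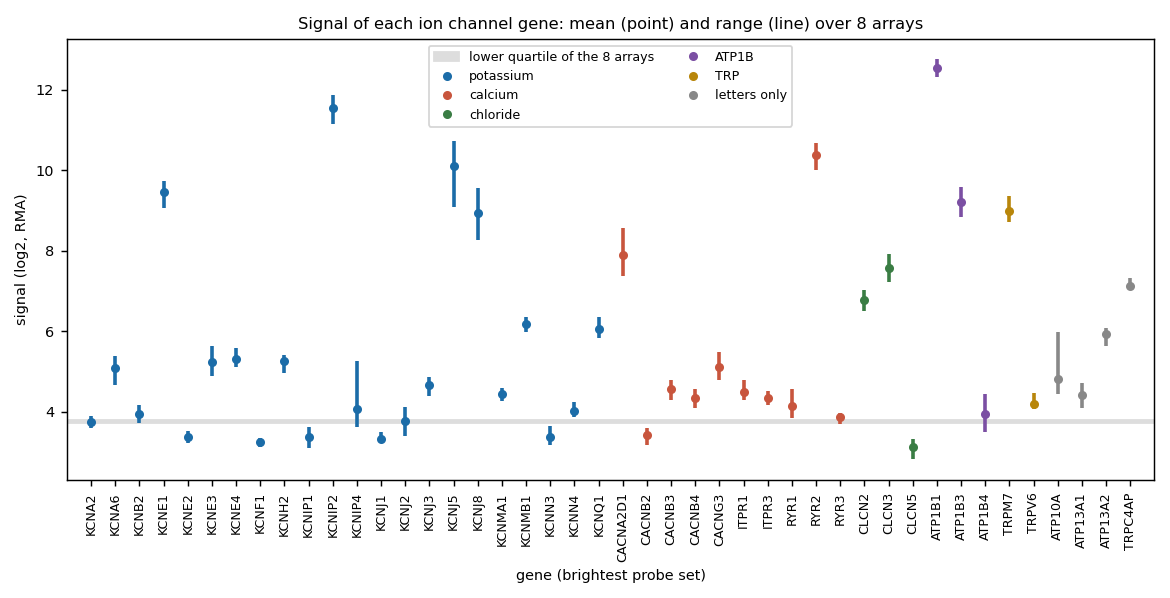
Signal (log2, RMA) of the 44 genes on their brightest probe sets, grouped by ion, with the mean over 8 arrays as a point and the lowest to highest array as a line. The grey band is the range of the arrays' lower quartiles, 3.72 to 3.80, and 7 genes lie under it on all arrays; heights of different genes cannot be compared.

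At the high dose most channel genes differed little from untreated animals, and those with the smallest p were the ATP1B genes, KCNIP1 and CLCN3, all higher. KCNJ5 and CACNA2D1 differed by more than CLCN3 in size, at -0.45 and -0.41, but varied widely within groups. No gene of the 44 passed in limma (smallest adjusted p = 0.368, for ATP1B4), and neither did any probe set on the array (0%). At an unadjusted p under 0.05 there were 5 genes, 11.4% of the 44, against 9.56% of all named genes. All 5 were higher (ATP1B4, ATP1B3, ATP1B1, KCNIP1 and CLCN3), a direction that 4.61% of named genes showed at this p, and 0 were lower, against 4.95% of named genes. The values of high-dose and untreated animals did not overlap for 9 genes that were higher, against a background of 16%, and for 2 that were lower, against 13%. The median change was 0.03 over the 44 genes and 0.02 over all named genes, and 42 of the 44 changes were smaller than 0.5 in size, as were 92.1% of those of named genes. The count of 5 was 2 without untreated replicate 1 and 3 without high-dose replicate 2.

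At the low dose ATP1B4 was the 1 gene with an unadjusted p under 0.05 (2.27% of the 44, against 3.87% of named genes). It was higher, as were 1.97% of named genes at that p, and 0 of the 44 were lower, against 1.91%. No gene passed (smallest limma adjusted p = 0.998), and 0% of all probe sets did. ATP1B1 and ATP1B4 were higher without overlap (background 4.39%) and TRPC4AP lower (background 4.14%). The median change was -0.03 over the 44 genes and -0.01 over named genes, the median size of change was 0.12, against 0.09 at the high dose, and 43 of the 44 changes were smaller than 0.5 in size, against 97.4% of named genes. The count of 1 was 2 without untreated replicate 1, 4 without low-dose replicate 1, 3 without low-dose replicate 2 and 2 without low-dose replicate 3.

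Between the doses, ATP1B3 was higher and RYR1 lower at the high dose with an unadjusted p under 0.05, which is 2 of 44 genes or 4.55%, against 11.2% of named genes in either direction, 5.41% higher and 5.79% lower. The doses did not overlap for 4 genes that were higher at the high dose (ATP1B3, ATP13A2, CACNB2 and KCNIP1), against a background of 14.9%, and for 2 that were lower (RYR1 and KCNE3), against 12.5%. Of the 44 differences 32 were above 0, against 54.1% for named genes, and all 44 were smaller than 0.5 in size, against 91.5%. In all, 0.025% of probe sets passed in this contrast, none of them from the 44 genes (smallest limma adjusted p = 0.294, for ATP1B3). The count of 2 was 1 without untreated replicate 3, 6 without low-dose replicate 1 and 4 without low-dose replicate 2. With both doses averaged against untreated animals, ATP1B4, ATP1B1 and ATP1B3 were higher with an unadjusted p under 0.05, which is 6.82% of the 44, against 5.42% of named genes in either direction and 2.6% in this one, and 0 were lower, against 2.82%. ATP1B1 and ATP1B4 were higher in all treated animals without overlap, against a background of 1.66%. Of the 44 averaged changes 22 were above 0, against 51.2% for named genes, and 43 were smaller than 0.5 in size, against 96.7%. None of the 44 passed (smallest limma adjusted p = 0.514, for ATP1B4), as was true of 0% of probe sets. These comparisons share animals, so their values are not independent of each other.

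**Figure D2:**
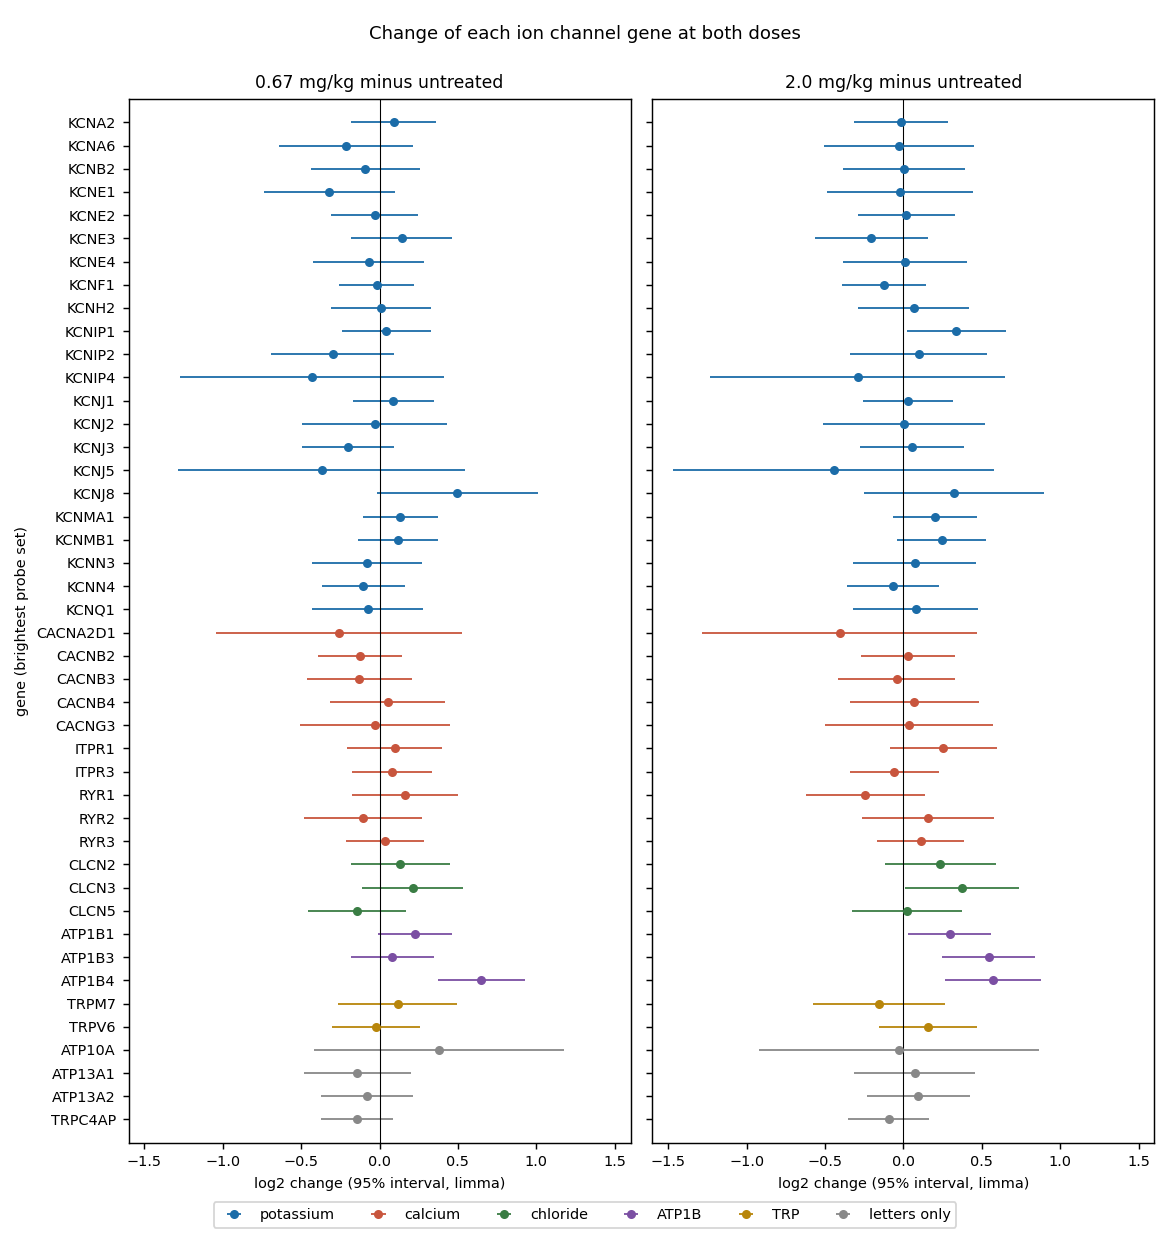
Log2 change of each of the 44 genes with its 95% interval from limma, at 0.67 mg/kg (left) and 2.0 mg/kg (right), both minus untreated, coloured by ion. Intervals that leave out 0 belong to ATP1B4 at the low dose and to ATP1B4, ATP1B3, ATP1B1, KCNIP1 and CLCN3 at the high dose, and none of these passed after adjustment over all probe sets.

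Both measured beta subunit genes of the sodium-potassium pump, ATP1B1 and ATP1B3, and their relative ATP1B4 had higher signals in high-dose than in untreated animals, with an unadjusted p under 0.05 for each. The beta subunit carries the catalytic alpha subunit to the membrane and stabilises it there. ATP1B1, the main beta subunit of heart muscle, measured 12.43, 12.45 and 12.31 in untreated, 12.66, 12.52 and 12.68 in low-dose and 12.63 and 12.76 in high-dose animals. Every treated animal was above every untreated one, though by little. Its change was 0.30 ± 0.12 (SE; limma adjusted p = 0.57) at the high dose and 0.23 ± 0.10 (adjusted p = 0.998) at the low dose. A less bright ATP1B1 probe set was at 0.30 for the high dose and at -0.08 for the low dose, with overlapping groups in both. With both probe sets averaged the low-dose change was 0.07.

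ATP1B3, a more widely expressed beta subunit, measured 9.15, 9.13 and 8.85 in untreated, 9.12, 9.06 and 9.19 in low-dose and 9.60 and 9.58 in high-dose animals. The high-dose pair, which carries consecutive label numbers, stood apart from all 6 other animals, and the low-dose animals overlapped the untreated ones. The change was 0.54 ± 0.13 (SE; limma adjusted p = 0.375, unadjusted p = 0.00261) against untreated, which is 1.46-fold, and 0.46 ± 0.13 (adjusted p = 0.294) against the low dose. At the low dose it was 0.08, with a 95% interval of -0.18 to 0.34. Over the alternatives run, the high-dose change stayed between 0.44 (without untreated replicate 3) and 0.60 (without untreated replicate 1).

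ATP1B4 codes for a muscle protein of the same family that, in placental mammals, sits in the inner nuclear membrane and is not known to work in the pump. It measured 3.51, 3.64 and 3.58 in untreated animals, all under the lower quartile of their arrays, and 4.45, 4.11 and 4.12 in low-dose and 4.16 and 4.13 in high-dose animals, all above it. The groups did not overlap at either dose, and the doses overlapped each other. The change was 0.65 ± 0.12 (SE; limma adjusted p = 0.998, unadjusted p = 0.00054) at the low dose and 0.57 ± 0.13 (adjusted p = 0.368) at the high dose. Because the untreated signals were close to background, these values give no exact size of change. With the 3' to 5' gap of each array as a covariate the low-dose change was 0.50 and the high-dose change 0.61.

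**Figure D3:**
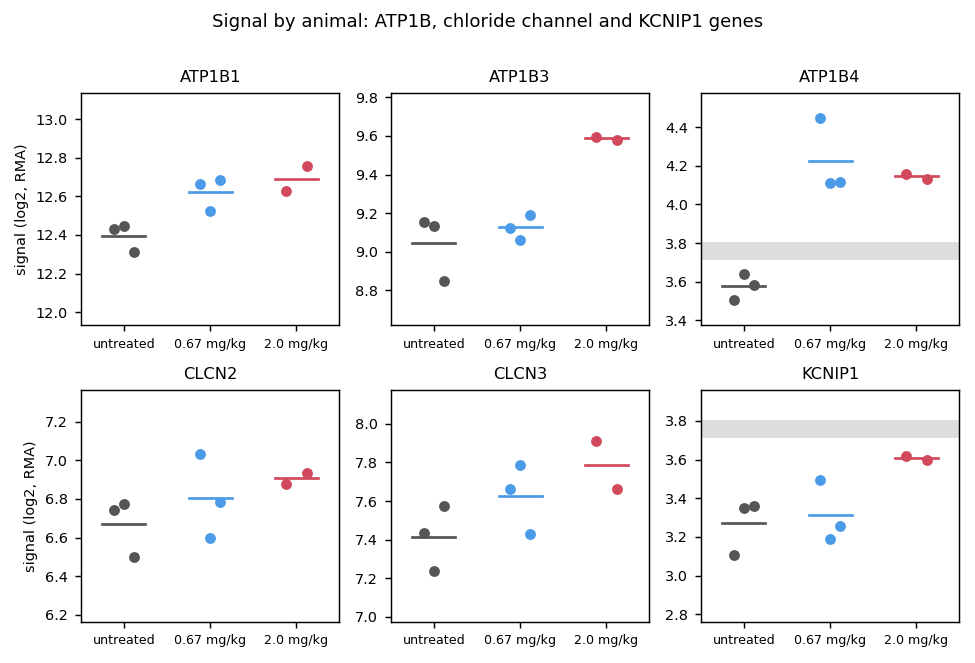
Signal (log2, RMA) in each animal for the pump beta subunit genes ATP1B1 and ATP1B3 and their relative ATP1B4, the chloride genes CLCN2 and CLCN3 and the potassium channel partner KCNIP1, with group means as lines and the band of the arrays' lower quartiles in grey where it falls in range. ATP1B3 is higher in high-dose animals alone (9.58 and 9.60, against at most 9.19 in the others), whereas ATP1B4 is above the band in all 5 treated animals and under it in the 3 untreated ones.

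The chloride genes CLCN2 and CLCN3 were somewhat higher at the high dose and CLCN5 was under background on all arrays. CLCN3, a chloride-proton exchanger of endosomes, measured 7.44, 7.24 and 7.57 in untreated, 7.66, 7.79 and 7.43 in low-dose and 7.91 and 7.66 in high-dose animals. High-dose and untreated animals did not overlap, and the change was 0.37 ± 0.16 (SE; limma adjusted p = 0.611). It rests on 1 probe set, since less bright CLCN3 probe sets were at 0.03 and -0.41 for the same contrast, and averaging its 3 probe sets gave a change of 0.00. CLCN2, an inwardly rectifying chloride channel of the cell membrane, measured 6.74, 6.78 and 6.50 in untreated, 7.03, 6.596 and 6.78 in low-dose and 6.88 and 6.94 in high-dose animals, a high-dose change of 0.24 ± 0.16 (adjusted p = 0.767).

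The potassium channel genes showed no shared shift in either direction, with a median change of 0.01 over the 22 genes at the high dose, 14 of them above 0, and of -0.05 at the low dose, 8 of them above 0. Over all named genes 53.8% of changes were above 0 at the high dose and 48.3% at the low dose. The count at an unadjusted p under 0.05 was 1 of 22 at the high dose (KCNIP1) and 0 of 22 at the low dose, where 9.56% and 3.87% of named genes had such a p.

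Among the genes of the delayed rectifier currents, which end the action potential, none stood apart. KCNE1, the small subunit that joins KCNQ1 in the slow delayed rectifier, measured 9.73, 9.36 and 9.71 in untreated, 9.07, 9.66 and 9.11 in low-dose and 9.68 and 9.48 in high-dose animals. A pair of low-dose animals lay lower than all others and the third did not. The change was -0.02 ± 0.20 (SE; limma adjusted p = 0.992) at the high dose and -0.32 ± 0.18 (adjusted p = 0.998) at the low dose. Less bright KCNE1 probe sets were at 0.07 and 0.01 for the low dose. KCNQ1, its pore-forming partner, was at 0.08 (95% interval -0.32 to 0.47) at the high dose and -0.08 (-0.43 to 0.28) at the low dose, and KCNH2, the pore of the rapid delayed rectifier, at 0.06 (-0.29 to 0.42) and 0.01 (-0.31 to 0.33).

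KCNIP2, the calcium-binding partner of the transient outward channel and a gene that falls in many models of heart failure, measured 11.60, 11.43 and 11.88 in untreated, 11.21, 11.15 and 11.65 in low-dose and 11.64 and 11.83 in high-dose animals. The same low-dose animals were not lowest throughout, since replicates 1 and 2 were lowest here and replicates 1 and 3 for KCNE1. Its change was 0.10 at the high dose (95% interval -0.34 to 0.53), -0.30 at the low dose (-0.69 to 0.09) and 0.40 ± 0.19 (SE; limma adjusted p = 0.539) between the doses. KCNIP1, a related partner found mainly in neurons, was under background on every array at 3.10, 3.35 and 3.36 in untreated, 3.49, 3.19 and 3.26 in low-dose and 3.62 and 3.60 in high-dose animals. Its high-dose change of 0.34 (limma adjusted p = 0.595) therefore gives no size. KCNIP4, a further member of that family, varied most in untreated animals, at 3.63, 4.04 and 5.27, and read 3.69 to 4.21 at the low dose and 3.97 to 4.07 at the high dose.

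The inward rectifiers differed among animals more than among groups. KCNJ5, a subunit of the acetylcholine-activated channel, measured 10.49, 10.11 and 10.48 in untreated, 10.04, 10.45 and 9.48 in low-dose and 10.74 and 9.08 in high-dose animals. The high-dose pair held both the highest and the lowest of the 8 values. Its high-dose change of -0.45 ± 0.45 (SE; limma adjusted p = 0.873) was -1.27 without high-dose replicate 1 and 0.38 without high-dose replicate 2, so 1 animal set its direction. The atrial and stress marker NPPA was also lowest in high-dose replicate 2, at 6.09, against 8.21 in high-dose replicate 1, 7.44 to 8.28 in low-dose and 8.45 to 8.59 in untreated animals, a high-dose change of -1.34 (limma adjusted p = 0.559). The atrial marker NR2F2 was at -0.35 at the high dose, but it was lowest in high-dose replicate 1, at 7.68, against 7.94 in replicate 2. The part of these shifts in the KCNJ5 values was not tested. A dimmer KCNJ5 probe set read 5.14 and 5.15 in the high-dose pair, against 5.12, 4.88 and 5.01 in untreated animals. Its high-dose change was 0.14 (limma adjusted p = 0.837), opposite in sign to that of the brightest probe set. KCNJ3, which joins KCNJ5 in that channel, measured 4.62, 4.67 and 4.87 in untreated, 4.73, 4.41 and 4.42 in low-dose and 4.71 and 4.84 in high-dose animals. KCNJ2, which carries the resting inward rectifier current of ventricular muscle, had a brightest probe set at 3.40 to 4.11, around the edge of background, and no change could be sized on it (0.00 at the high dose).

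KCNJ8, the pore of the ATP-sensitive channel of vascular muscle, measured 8.88, 8.27 and 8.85 in untreated, 8.87, 9.07 and 9.56 in low-dose and 9.15 and 8.83 in high-dose animals. Untreated replicate 2 was lowest and the groups overlapped. The change was 0.50 ± 0.23 (SE; limma adjusted p = 0.998) at the low dose and 0.32 ± 0.25 (adjusted p = 0.812) at the high dose. Its other probe sets were at 0.19 and -0.10 for the low dose and 0.35 and 0.20 for the high dose. KCNMA1 and KCNMB1, the pore and the smooth muscle subunit of the large-conductance calcium-activated channel, were both slightly higher at the high dose without overlap, at 0.20 ± 0.12 and 0.24 ± 0.12 (limma adjusted p = 0.727 and 0.683). KCNMB1 measured 6.30 and 6.36 in high-dose animals, against 5.98, 6.16 and 6.12 in untreated ones. Its less bright probe set went the other way at -0.19.

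Smooth muscle and pericyte markers did not move together at the high dose, where 4 of 7 changes were above 0, and their array means overlapped between groups. Their array means over 7 genes were 9.16 to 9.98 in untreated, 9.85 to 10.2 in low-dose and 9.76 to 9.88 in high-dose animals. At the high dose 3 of the 7 had an unadjusted p under 0.05, against 9.56% of named genes in either direction. These 3 were the smooth muscle genes CNN1 and SMTN, at 1.99 and 0.43, and the pericyte gene RGS5, at -0.93. None of them passed an adjusted p in limma. Low-dose replicate 2 had the highest ACTA2 and TAGLN signals, 12.54 and 8.74, but the lowest DES signal, 11.51. Its CNN1 and SMTN signals, 6.76 and 10.30, were the lowest of the low-dose group. On the less bright KCNMB1 probe set this animal read 7.005, against 4.65 to 5.68 in the other animals. The part of vascular cells in the KCNJ8, KCNMA1 and KCNMB1 values was not tested. In tissue RNA of this kind, fewer cells of a type and less RNA per cell cannot be told apart.

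**Figure D4:**
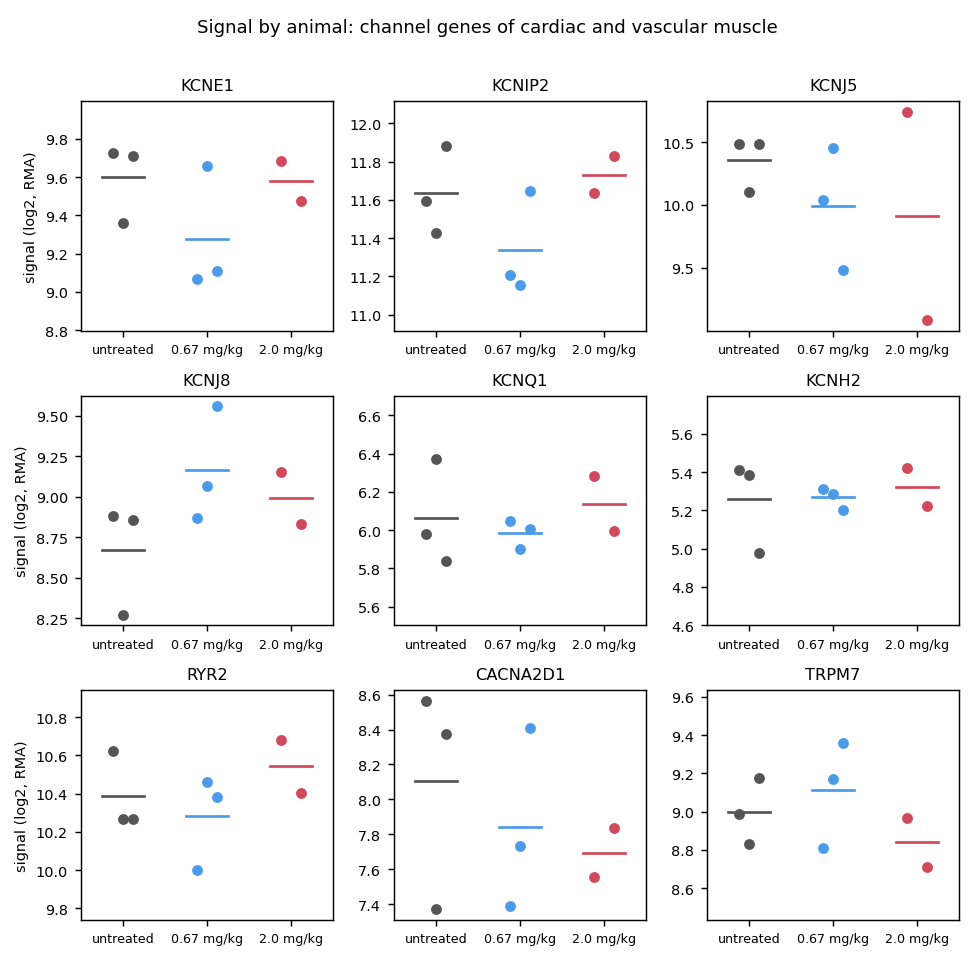
Signal (log2, RMA) in each animal for 9 channel genes of cardiac and vascular muscle, with group means as lines; the vertical scale differs between panels. KCNJ5 in the high-dose pair runs from 9.08 to 10.74, wider than any other group shown, and in none of these 9 genes were high-dose or low-dose animals separate from untreated ones.

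Of the remaining potassium channel genes, KCNE3, an accessory subunit best known from epithelia, was lower at the high dose, at 4.89 and 5.18, against 5.25, 5.19 and 5.28 in untreated animals, a change of -0.20 ± 0.16 (SE; limma adjusted p = 0.807). Low-dose animals were at 5.32, 5.19 and 5.63, so the high dose was -0.34 from the low dose (adjusted p = 0.509). KCNF1, a modifying subunit that forms no channel alone, was under background. The voltage-gated genes KCNA2, KCNA6 and KCNB2, the calcium-activated genes KCNN3 and KCNN4, the accessory subunits KCNE2 and KCNE4 and the kidney channel KCNJ1 had high-dose changes between -0.07 and 0.07.

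The calcium genes did not move together, with a median change of 0.03 over 10 genes at the high dose and 0.00 at the low dose, and none of the 10 had an unadjusted p under 0.05 against untreated animals. RYR2, the release channel of the cardiac sarcoplasmic reticulum, measured 10.63, 10.27 and 10.27 in untreated, 9.999, 10.46 and 10.38 in low-dose and 10.68 and 10.40 in high-dose animals. The 3 groups overlapped. Its change was 0.16 (95% interval -0.27 to 0.58) at the high dose and -0.11 (-0.48 to 0.27) at the low dose, and a less bright RYR2 probe set gave 0.14 and -0.02. RYR1, the skeletal muscle form, was close to background at 3.85 and 3.93 in high-dose animals, against 4.15, 4.18 and 4.57 in low-dose ones, a difference of -0.41 ± 0.17 (SE; limma adjusted p = 0.464). It was -0.27 without low-dose replicate 3. RYR3, a minor form in heart, read 3.70 to 3.98 over all animals.

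CACNA2D1, the auxiliary subunit that raises the surface level of voltage-gated calcium channels, varied most among the calcium genes. It measured 8.57, 7.37 and 8.37 in untreated, 7.39, 7.73 and 8.41 in low-dose and 7.55 and 7.84 in high-dose animals. Untreated replicate 2 and low-dose replicate 1, whose label numbers neighbour each other, were the lowest of all 8. The high-dose change was -0.41 ± 0.38 (SE; limma adjusted p = 0.858) with all animals and -0.77 without that pair (adjusted p = 0.256). The beta subunits CACNB3 and CACNB4 were at -0.04 and 0.07 at the high dose, CACNB2, the main beta subunit of cardiac calcium channels, was under background on all arrays, and CACNG3, known mainly from brain, was at 0.04. The inositol trisphosphate receptor ITPR1 measured 4.58, 4.34 and 4.30 in untreated, 4.64, 4.34 and 4.54 in low-dose and 4.78 and 4.54 in high-dose animals, a high-dose change of 0.26 ± 0.15 (adjusted p = 0.727), and ITPR3 was at -0.06.

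TRPM7, a magnesium-permeable channel joined to a kinase, measured 8.99, 8.83 and 9.17 in untreated, 8.81, 9.17 and 9.36 in low-dose and 8.97 and 8.71 in high-dose animals. The groups overlapped, with changes of -0.16 at the high dose and 0.12 at the low dose. TRPV6, a calcium channel of epithelia, was at 0.15 and -0.02. Among the genes that only share opening letters, TRPC4AP, part of a ubiquitin ligase, was lower in every treated animal, at 7.03 to 7.14, against 7.14 to 7.34 in untreated ones, by -0.12 for both doses averaged (limma adjusted p = 0.972), where 1.2% of named genes were lower without overlap. The flippase gene ATP10A read 5.99 in low-dose replicate 2 and 4.45 to 4.92 in the other 7 animals. The membrane ATPases ATP13A1 and ATP13A2 were at 0.07 and 0.09 at the high dose.

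Several genes had more than 1 probe set, which gave a check within the array. Of the 30 less bright probe sets, from 21 genes, 14 lay above background on all arrays. Their change had the same sign as that of the brightest probe set in 9 of 14 cases at the high dose and in 4 of 14 at the low dose, and none of the 14 had an unadjusted p under 0.05 in any of the 4 contrasts. The low-dose changes of CLCN3 and KCNE1 had the opposite sign on both other probe sets of each gene.

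**Figure D5:**
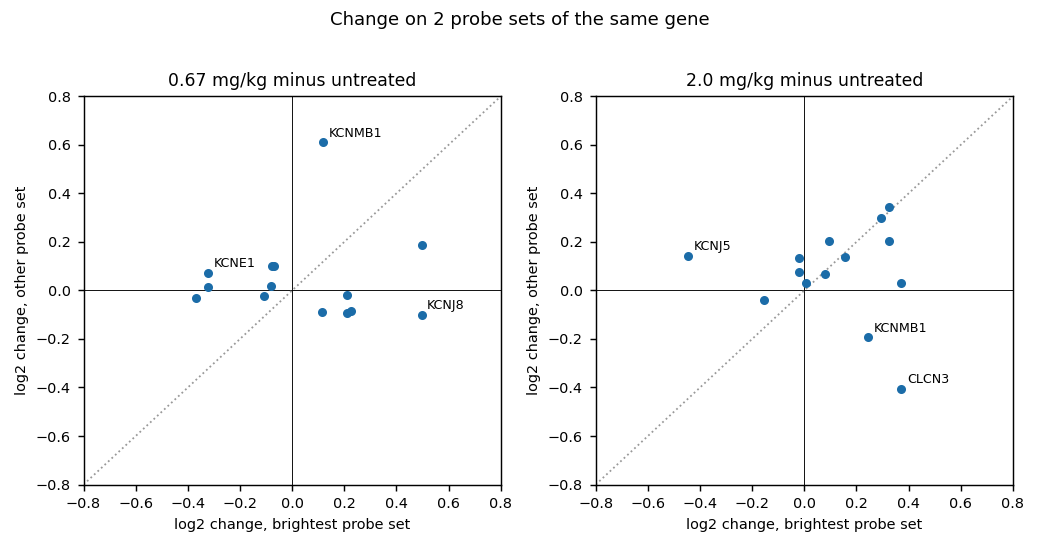
Log2 change on the brightest probe set of a gene (horizontal) against that on another probe set of the same gene that lay above background on all arrays (vertical), at 0.67 mg/kg (left) and 2.0 mg/kg (right), both minus untreated, with the dotted line marking equal values. At the high dose 9 of 14 pairs share a sign and at the low dose 4 of 14 do, with KCNMB1, KCNJ8, KCNJ5 and CLCN3 among the pairs farthest from the line.

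Other genes of cardiac excitation and calcium cycling, listed by role, were also measured. Of 66 such genes 34 were measured, and at the high dose 3 were higher and 0 lower at an unadjusted p under 0.05, where 4.61% of named genes were higher and 4.95% lower, and 0 passed in limma. The 3 were SLN, which inhibits the calcium pump of the sarcoplasmic reticulum, at 1.84 ± 0.50 (SE; adjusted p = 0.403), SGK1 at 0.70 ± 0.21 (adjusted p = 0.422) and ANK3, which anchors sodium channels and the pump, at 0.35 ± 0.15 (adjusted p = 0.607). SGK1, a kinase known to raise the surface level of several channels and of the pump, measured 8.81, 8.996 and 8.89 in untreated, 9.21, 8.43 and 8.98 in low-dose and 9.59 and 9.61 in high-dose animals. As with ATP1B3, the same high-dose pair was above all 6 other animals. Of named genes, 16% were higher without overlap at the high dose against untreated animals and 14.9% against the low dose. A link between SGK1 and the pump genes was not tested. The calcium pump ATP2A2 was at 0.03, phospholamban (PLN) at 0.05, the sodium-calcium exchanger SLC8A1 at 0.54 and calsequestrin (CASQ2) at 0.51, the last 2 with overlapping groups. At the low dose SLN was higher and the calcium-binding protein S100A1 lower at an unadjusted p under 0.05, at 1.199 and -0.59, and 0 of the 34 passed. Of named genes 1.97% were higher and 1.91% lower at that p at the low dose.

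Most markers of fibroblasts and macrophages had lower signals in high-dose than in untreated animals, although no marker passed an adjusted p in limma. Fibroblast markers had a median change of -0.77 over 9 genes, and 5 of them were lower at an unadjusted p under 0.05, whereas COL3A1 and TCF21 were at 0.83 and 0.13. Their array means were 8.07 to 8.46 in high-dose animals, against 8.61 to 9.27 in untreated ones. Macrophage markers had a median change of -0.80 over 7 genes, 6 of them lower at that p and CD14 at 0.16. Array means of the macrophage list were 6.64 to 6.66 in high-dose animals, against 7.10 to 7.57 in untreated ones. Of all named genes 4.95% were lower at that p in this contrast, and 13% were lower without overlap. Median high-dose changes of the other lists were 0.03 for cardiac muscle, 0.05 for smooth muscle and pericytes, -0.07 for endothelium and -0.01 for lymphocytes. They were -0.05 for Schwann cells and nerve and -0.18 for adipocytes. In the endothelium list PECAM1 was at -0.57 and TEK at -0.53, both with an unadjusted p under 0.05 in limma. The other way went 3 of the 10 endothelium genes, ENG at 0.27, ESAM at 0.17 and TIE1 at 0.11. Erythrocyte markers had a median of -0.49 over 3 genes, with ALAS2 and AHSP at -0.60 and -0.49 but HBB at 0.12. Of the 3 genes that tell ventricle and atrium apart, the ventricular MYL2 was at 0.02. The atrial markers NPPA and NR2F2 were at -1.34 and -0.35. The part of these shifts in the pump and chloride gene values was not tested.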

How the data were processed

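Per the labels, biotin-labelled RNA of 8 pigs was hybridised to 1 Affymetrix porcine array an animal. The authors deposited log2 values for 24123 probe sets, made with RMA and Partek 6.6 per the submitters' processing notes. No source used here gives further settings. Groups came from the treatment in the labels, and replicate numbers follow sample order and pair nothing.

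After 124 control probe sets were left out, limma 3.58.1 in R 4.3.3 fitted 1 mean per group to 23999 probe sets on all 8 arrays (5 residual and 3.50 prior degrees of freedom). The 4 contrasts were adjusted over all probe sets by the Benjamini-Hochberg method, and 0.05 was the threshold. The fit was tested on simulated data. The platform annotation gave 1 symbol to 10069 probe sets, several to 198 and none to 13732. For 41 of the 44 genes the symbol was the same in current gene records. For 3, KCNB2, KCNE1 and KCNH2, no current symbol was found, so their names rest on the platform annotation.

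Named genes were a fixed set of 50 cardiac genes, of which 21 were measured, the 10 genes with the smallest p in each contrast, and the brightest and dimmest gene of each ion class, 31 genes in all. The members, the companion list and the markers were chosen with earlier results of these data known. Alternatives were other variance priors, removal of dim probe sets, centring each array on its median, repeated quantile normalization, fits of only the groups compared, array weights, the 3' to 5' gap as a covariate, averaged probe sets per gene, 2 narrower member lists, leaving out 2 animals of different groups with neighbouring label numbers (untreated replicate 2 and low-dose replicate 1) and leaving out each array. Untreated replicates 1 and 3 and the 2 high-dose animals also have neighbouring label numbers. The number of arrays limits the precision.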

Additional observations from a re-analysis of the deposited data

How the results depend on the processing

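No ion channel gene passed a limma adjusted p of 0.05 in any of the 4 contrasts under any alternative run, leaving out each array included, where the count was 0 throughout. As reported, 5, 1, 2 and 3 genes lay at an unadjusted p under 0.05 for the high dose, the low dose, high against low dose and both doses. With each array left out in turn these counts ranged from 2 to 5 for the high dose, from 1 to 4 for the low dose, from 1 to 6 for high against low dose and from 2 to 4 for both doses. With probe sets under the median left out, which keeps 15 of the 44 genes, they were 2 for the high dose, 0 for the low dose and 1 between the doses. Averaging the probe sets of each gene gave 3 for the high dose. For the low dose the count was 2 with an intensity trend, 3 with quantile normalization repeated, 3 with the 3' to 5' gap as a covariate and 2 without the animals of neighbouring label numbers, an omission that gave 6 between the doses. The cause of these shifts was not tested, except that fewer genes entered under the filter. Of 3312 changes of single genes under the alternatives, 3241 moved by less than 1 SD between replicates and 71 by more, 22 of those to a smaller and 49 to a larger size. With high-dose replicates 1 or 2 left out that group holds 1 animal, which is then assumed to vary like the others. No paired analysis was possible because the labels give no replicate numbers. Signals near background limit the 7 genes under the lower quartile on all arrays and the 6 above it on some.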
